A study of Mus musculus with 25 samples.

Results

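Microglia sorted from the brains of 5XFAD mice after anti-PD-1 treatment were compared between D14 and D7 across all genes measured. The comparison holds 6 of the 25 libraries of the series, 3 at each day, and was chosen by the labels, which give the CD45low gate and the day in each title. Of 19762 genes in the count table, 9058 had enough counts to be tested.

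5XFAD is a transgenic mouse strain that carries familial Alzheimer's disease mutations in human transgenes and builds up amyloid plaques early. All 6 libraries came from 5XFAD brain perfused with PBS, all were from mice given anti-PD-1, and all were gated as CD11b+CD45-low, the gate the study used for microglia. The libraries were 3′-end mRNA libraries, which count transcripts near their polyadenylated end. The 5 other sorted libraries, 3 at D7 and 2 at D14, came from the CD11b+CD45-high gate, which the study used for monocyte-derived macrophages, and the 14 remaining libraries were choroid plexus. The labels do not say from which event D7 and D14 are counted, give no age, and do not say whether the 3 libraries of a day came from separate mice, so p-values measure the spread between these libraries. Every sorted library came from anti-PD-1 mice, so what follows the antibody and what follows time alone cannot be told apart.

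Microglia are the resident macrophages of the brain. They hold a homeostatic programme (P2ry12, Tmem119, Cx3cr1) that depends on CSF1 receptor and TGF-beta signalling, and near amyloid plaques some of them take up a disease-associated programme (Itgax, Clec7a, Cst7, Lpl) that depends in part on the lipid receptor Trem2. They also answer type I interferon and interferon-gamma with largely overlapping sets of genes. PD-1 is an inhibitory receptor best known from T cells, and blocking it is known to raise their output of interferon-gamma.

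The 6 libraries held 546297 to 974777 counts each, and a count of 0 allows a level of up to 3 counts, or 3.08 to 5.49 CPM (counts per 1000000) on the library's own total. Levels below are CPM on library sizes scaled by TMM normalization. The gate's label was checked on 38 homeostatic microglia genes: their summed level was 28255 to 41809 CPM in the CD45-low libraries and 9910 to 19940 CPM in the CD45-high libraries, with no overlap. D7 replicate 3 lay apart from the other libraries. It had the lowest total, and in a principal component analysis of 7193 genes it alone took an extreme position on the first component, which held 34.8% of the variance. Its summed level of 28 neutrophil genes was 7558 CPM, against 859 to 1813 CPM in the other 5 libraries, and its summed level of 38 monocyte genes was 3205 CPM, against 777 to 1163 CPM. On the second component (24% of the variance) D14 replicate 3 stood at one end and D7 replicate 1 at the other.

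Few genes passed an adjusted threshold between D7 and D14, and a gene that did not pass is not shown to be unchanged. By edgeR's quasi-likelihood test over all 11 sorted libraries, with Benjamini-Hochberg adjustment, 9 of 9058 genes passed an adjusted p of 0.05, or 0.0994% of those tested. Of these, 2 were higher at D14 (0.0221% of those tested) and 7 were lower (0.0773%). At an unadjusted p under 0.05 stood 665 genes (7.34%), of which 256 were higher at D14 (2.83%) and 409 lower (4.52%). The median log2 fold change over all tested genes was -0.02, and 90% of the genes, between the 5th and the 95th percentile, lay between -0.83 and 0.73.

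Enpp2 and Cacna1a rose. Enpp2 encodes autotaxin, the secreted enzyme that makes lysophosphatidic acid and that is abundant in choroid plexus epithelium. Its level was 78.0, 53.1 and 20.4 CPM in the D7 libraries and 192.9, 274.4 and 412.6 CPM in the D14 libraries. Every D14 library lay above every D7 library, and D7 replicate 3 was the lowest of all. The log2 fold change was 2.48 (SE 0.36, adjusted p = 0.0123 by edgeR), or 5.57-fold. Cacna1a encodes the pore-forming subunit of P/Q-type voltage-gated calcium channels. It stood at 23.5, 25.1 and 25.9 CPM at D7 and at 128.2, 86.2 and 92.2 CPM at D14. The D7 libraries were close to each other and all D14 libraries were far above them. The log2 fold change was 2.03 (SE 0.33, adjusted p = 0.0141 by edgeR), or 4.09-fold.

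Jdp2, Tbc1d9 and Pde2a fell. Jdp2 encodes a leucine zipper protein that dimerizes with Jun and represses AP-1 sites. It was at 74.8, 67.2 and 112.9 CPM at D7 and at 26.1, 20.4 and 23.3 CPM at D14, and the days did not overlap. Its log2 fold change was -1.84 (SE 0.29, adjusted p = 0.0141 by edgeR). Tbc1d9, which encodes a protein with a TBC domain as found in Rab GTPase activators, was at 187.0, 175.5 and 198.1 CPM at D7 and at 59.7, 80.6 and 62.4 CPM at D14. The 3 D7 values lay within a narrow band and the D14 values well below it. Its log2 fold change was -1.46 (SE 0.24, adjusted p = 0.0141 by edgeR). Pde2a encodes a cyclic nucleotide phosphodiesterase. It was at 72.7, 142.4 and 79.6 CPM at D7, highest in replicate 2, and at 32.4, 23.2 and 44.7 CPM at D14, with no overlap and a log2 fold change of -1.56 (SE 0.29, adjusted p = 0.0363 by edgeR).

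The 4 other genes that fell, Lcn2, Anxa1, Chil3 and Ltf, all stood on the list of neutrophil markers, and all were highest by far in D7 replicate 3. Lcn2 encodes lipocalin 2, which binds bacterial siderophores, and stood at 181.7, 111.3 and 940.5 CPM at D7 and at 54.8, 29.7 and 62.4 CPM at D14. Chil3, which encodes the secreted chitinase-like protein Ym1, stood at 190.3, 108.3 and 1318 CPM at D7 and at 49.8, 55.6 and 59.6 CPM at D14. In both genes replicates 1 and 2 of D7 also lay above all D14 libraries. Anxa1, which encodes the phospholipid-binding annexin A1, stood at 69.5, 56.2 and 694.3 CPM at D7 and at 27.4, 13.0 and 10.2 CPM at D14. Ltf, which encodes the iron-binding granule protein lactoferrin, stood at 85.5, 63.2 and 377.7 CPM at D7 and at 24.9, 15.8 and 40 CPM at D14. Again no D14 library reached a D7 library. The log2 fold changes were -3.04 for Lcn2 (SE 0.55), -3.26 for Chil3 (SE 0.60), -4.0 for Anxa1 (SE 0.73) and -2.63 for Ltf (SE 0.50), with adjusted p of 0.0363 for the first 3 and 0.0478 for Ltf by edgeR. Without D7 replicate 3 the log2 fold changes were -1.59, -1.43, -1.95 and -1.45, and all 9 genes remained called. The 4 genes were not called on recovered reads (adjusted p of 0.0620 for each by edgeR), in a fit of the 6 CD45-low libraries alone (0.0672 to 0.0758), or without D14 replicate 3 (0.0760 to 0.185). DESeq2 called Lcn2 and Ltf and gave Anxa1 and Chil3 no adjusted p. In bulk samples, fewer cells of a type and less RNA per cell cannot be told apart.

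**Figure D1:**
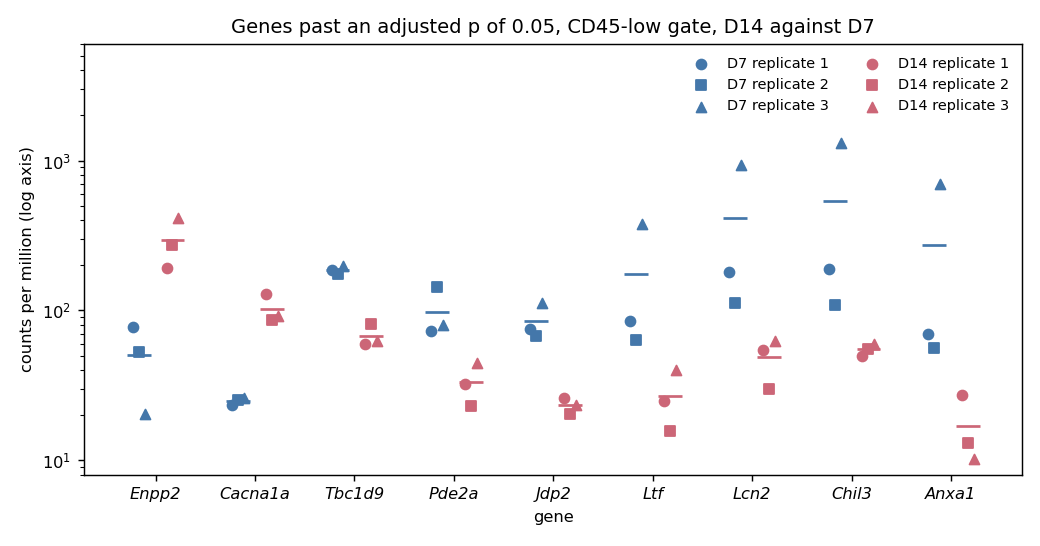
Counts per 1000000 (CPM) (log axis) of the 9 genes past an adjusted p of 0.05, one point per CD45-low library, blue for D7 and red for D14, with short lines at the mean of 3 libraries. Enpp2 and Cacna1a lie higher at D14 and the other 7 lower, and for Ltf, Lcn2, Chil3 and Anxa1 the D7 replicate 3 triangle lies far above all other libraries.

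The number of calls depended on single libraries at both days. Leaving out D14 replicate 2 left no gene called by edgeR (456 at an unadjusted p under 0.05), and leaving out D14 replicate 1 left Enpp2 alone. Leaving out D14 replicate 3 left 3 higher and 4 lower. Leaving out D7 replicate 1 or 2 raised the calls to 4 higher and 21 lower, and to 4 higher and 30 lower. Pde2a was not called in the fit of the 6 CD45-low libraries alone or on recovered reads, and Tbc1d9 was not called on recovered reads or without D14 replicate 3.

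By the same rule of smallest p, the next genes higher at D14 did not pass the adjusted threshold, with adjusted p from 0.0702 to 0.187 by edgeR. They were Adamts16, a secreted metalloprotease of the ADAMTS family, Mnda, an interferon-inducible nuclear protein, Tnfaip3, Map7, a microtubule-binding protein, Itgax, Csf1, Prkcq, the protein kinase C theta, and Rtp4. Adamts16 was at 10.7, 4.01 and 3.70 CPM at D7 and at 48.5, 61.2 and 38.2 CPM at D14. Map7 was at 2.14, 0 and 5.55 CPM at D7 and at 23.6, 31.5 and 27.0 CPM at D14, and Mnda was at 0 in all D7 libraries and at 8.71, 12.0 and 6.52 CPM at D14. In all 3 of these all D14 libraries lay above all D7 libraries, from low levels.

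Among the genes next in order on the lower side were Fkbp5, D8Ertd738e and Ddit4, each with an adjusted p of 0.0702 by edgeR, which did not pass. Fkbp5, a co-chaperone of steroid receptors that glucocorticoids induce, was at 372.0, 299.8 and 411.0 CPM at D7 and at 70.9, 131.6 and 205.8 CPM at D14. Ddit4, an inhibitor of mTORC1 that stress and glucocorticoids induce, was at 279.0, 75.2 and 153.7 CPM at D7 and at 46.0, 47.3 and 41 CPM at D14. In both, no D14 library reached a D7 library. D8Ertd738e was at 134.7 to 203.7 CPM at D7 and at 72.2 to 98.7 CPM at D14.

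Genes were then read by lists of pathway members and cell type markers. Few single genes passed, so each list is described by counts at an unadjusted p under 0.05, which are read beside the 2.83% of all 9058 genes that were higher and the 4.52% that were lower at that level.

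**Figure D2:**
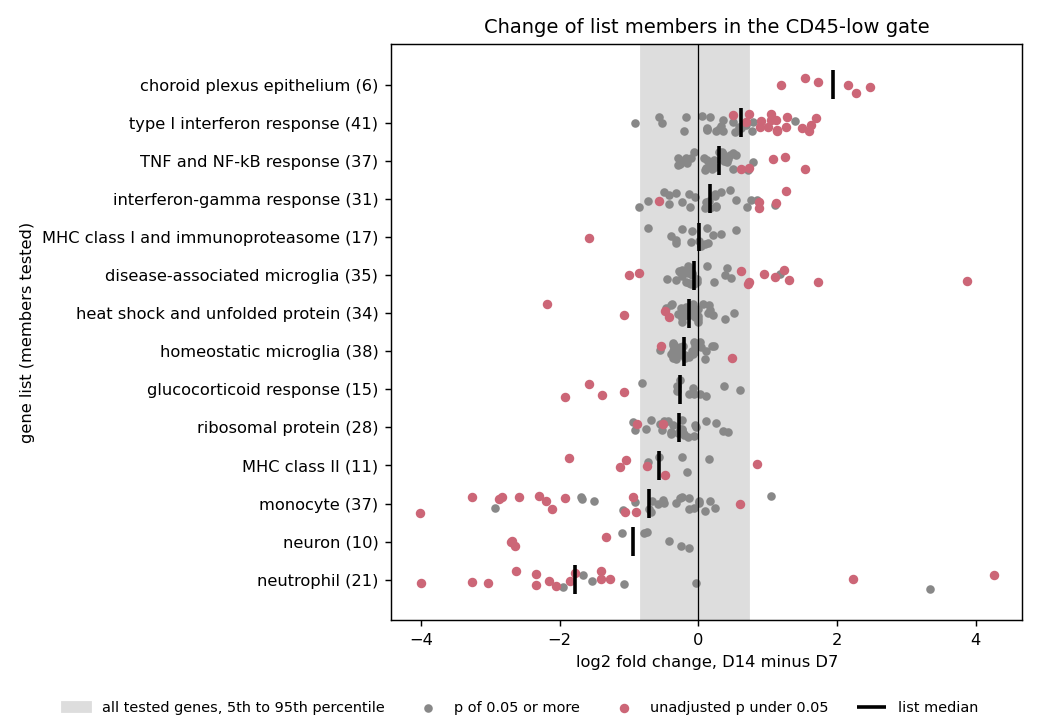
Log2 fold change, D14 minus D7, of each tested member of 14 gene lists in the CD45-low gate, with red points at an unadjusted p under 0.05, black bars at each list's median and a grey band from the 5th to the 95th percentile of all tested genes. The medians run from 1.94 for choroid plexus epithelium and 0.62 for the type I interferon response to -1.78 for neutrophil markers.

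Of 41 tested type I interferon response genes, 36 had a higher estimate at D14, against 48.1% of all tested genes. At an unadjusted p under 0.05, 17 of the 41 were higher and none lower, against 2.83% and 4.52% of all genes. In 13 of the 41 every D14 library lay above every D7 library, against 6.79% of all genes. The median log2 fold change was 0.62. No member passed the adjusted threshold by edgeR.

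The list's members include antiviral effectors, sensors and transcription factors. The effector Rtp4, an interferon-induced protein, had the smallest p: it was at 35.3, 63.2 and 61.1 CPM at D7 and at 129.4, 118.6 and 136.0 CPM at D14. The D14 libraries were close together and all above D7, with a log2 fold change of 1.28 (SE 0.32, adjusted p = 0.187 by edgeR). Oasl2, of the oligoadenylate synthetase-like family, was at 13.9, 21.1 and 9.26 CPM at D7 and at 33.6, 38.9 and 29.8 CPM at D14. Slfn5, of the Schlafen family, was at 21.4, 6.02 and 20.4 CPM at D7 and at 34.8, 42.6 and 32.6 CPM at D14. In both the days did not overlap, and the log2 fold changes were 1.13 (SE 0.41) and 1.26 (SE 0.46). Usp18, the protease that takes ISG15 off proteins and dampens interferon receptor signalling, was at 7.48, 13.0 and 14.8 CPM at D7 and at 27.4, 23.2 and 25.1 CPM at D14. Ifi204, a DNA-binding protein of the HIN-200 family, was at 7.48, 60.2 and 25.9 CPM at D7 and at 63.5, 115.9 and 91.3 CPM at D14, so its D14 libraries also lay above D7, although replicate 2 of D7 came close. Ifi27l2a was at 10.7, 16.0 and 40.7 CPM at D7 and at 41.1, 44.5 and 97.8 CPM at D14, with D7 replicate 3 just below D14 replicate 1.

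Among the RNA sensors, Ddx58 (RIG-I) was at 37.4, 54.2 and 29.6 CPM at D7 and at 51.0, 79.7 and 74.5 CPM at D14, where D14 replicate 1 lay below D7 replicate 2. Ifih1 (MDA5) had a log2 fold change of 0.12 (SE 0.38). Of the transcription factors that carry the type I interferon signal to DNA, Stat2 had a log2 fold change of 0.36 (SE 0.29) and Irf9 of 0.30 (SE 0.21). The 5 members with a lower estimate were Bst2, Ifi35, Oas3, Samd9l and Slfn2, none at an unadjusted p under 0.05. Bst2, tetherin, was the most uneven: 58.5 and 41.7 CPM in D14 replicates 1 and 2 but 289.6 CPM in replicate 3, against 143.2 to 275.9 CPM at D7.

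The count of 17 moved with the libraries: it was 8 without D7 replicate 1, and 10 without D14 replicate 2 or without D14 replicate 3. The list's median stayed between 0.51 and 0.72 when any library of this gate was left out. By the reads recovered from the authors' scaled table, 38 of 44 tested members had a higher estimate, 17 were higher at an unadjusted p under 0.05, beside 3.15% of all genes, and 1 was lower, beside 4.98%.

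**Figure D3:**
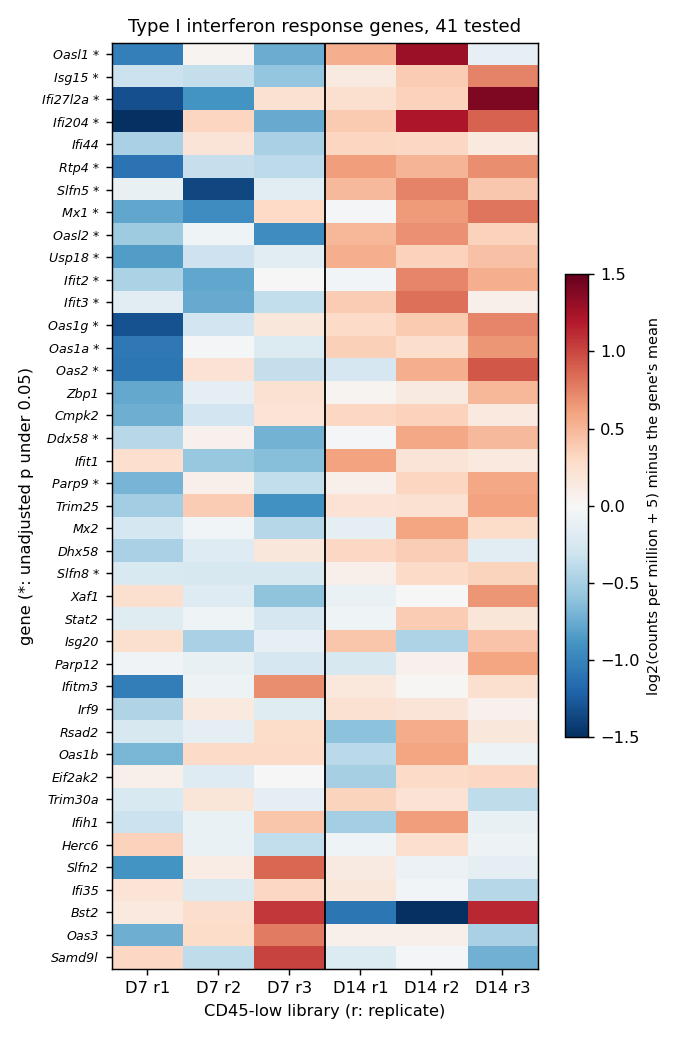
Level of the 41 tested type I interferon response genes in the 6 CD45-low libraries, as log2(CPM + 5) minus the gene's own mean, red for above and blue for below, ordered by fold change, with asterisks at an unadjusted p under 0.05. Most of the genes in the upper rows are blue in the 3 D7 columns and red in the 3 D14 columns, and the order breaks up in the lower rows, where Bst2 and Samd9l vary within a day.

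The DNA element through which ISGF3 and the IRF factors act, the interferon-stimulated response element (ISRE), was looked up in the promoters of the list as 2 copies of GAAA with 2 free bases between them, on either strand. RefSeq promoter windows, from 250 bases before to 50 after the gene's start on GRCm38.p6, were at hand for 30 of the 41 tested members, and 16 of these (53.3%) held the motif. It was found in 3.99% of all 27025 genes with a window and in 3.90% of the 6951 tested genes with a window. Printed here are the stretches around the motif in the 5 members with a window, a motif and the smallest p, in lower case with the matched letters in capitals, which read as the reverse complement in Ddx58 and Ifit3. In Oas1g and Oas1a the capitals cover 2 matches that overlap, and in Ifit3 2 separate ones. A match is a description of the letters and not a measured site.
Oas1g, chr5:120887586-120887661, minus strand: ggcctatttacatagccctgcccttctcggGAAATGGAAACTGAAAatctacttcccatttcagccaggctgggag
Slfn5, chr11:82951917-82951986, plus strand: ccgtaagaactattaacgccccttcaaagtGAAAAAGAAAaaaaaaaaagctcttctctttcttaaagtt
Oas1a, chr5:120907500-120907575, minus strand: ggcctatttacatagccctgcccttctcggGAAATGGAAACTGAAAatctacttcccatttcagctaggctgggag
Ddx58, chr4:40239784-40239853, minus strand: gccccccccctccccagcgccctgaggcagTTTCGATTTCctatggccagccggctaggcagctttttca
Ifit3, chr19:34583343-34583446, plus strand: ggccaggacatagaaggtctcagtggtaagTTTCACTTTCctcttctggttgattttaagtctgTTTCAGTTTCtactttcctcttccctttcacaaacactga

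Ifit3, which binds the ends of foreign RNA in a complex with its relatives, stood at 22.4, 13.0 and 18.5 CPM at D7 and at 34.8, 49.1 and 27.0 CPM at D14. Every D14 library lay above D7, with a log2 fold change of 1.04 (SE 0.44, adjusted p = 0.588 by edgeR). Oas1a and Oas1g, whose promoter stretches are nearly the same letters, are close copies that the authors' counting may have split, so their levels are uncertain between them. Oas1a was at 17.1 to 41.1 CPM at D7 and at 51.0 to 68.9 CPM at D14, and Oas1g at 12.8 to 44.4 CPM and at 48.5 to 68.0 CPM.

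The interferon-gamma list had a smaller median. Of 31 tested genes, 20 had a higher estimate at D14, with a median of 0.16. Higher at an unadjusted p under 0.05 were 4, among them Gbp9, Parp14 and Ccl5, and Gbp7 was lower, beside 2.83% and 4.52% of all genes. The 4 became 2 without D7 replicate 1 and 8 without D7 replicate 3. The guanylate-binding protein Gbp9 was at 37.4, 37.1 and 29.6 CPM at D7 and at 61.0, 69.5 and 62.4 CPM at D14. Gbp7, of the same GTPase family, was at 271.5, 187.5 and 194.4 CPM at D7 and at 141.9, 157.6 and 141.6 CPM at D14. The groups did not overlap in either gene, and the directions were opposite, at 0.87 (SE 0.28) and -0.57 (SE 0.22) on the log2 scale, neither past the adjusted threshold by edgeR.

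Of the PD-1 pair itself, Pdcd1, the receptor that the antibody binds, was near the counting limit: 2.14, 7.02 and 0 CPM at D7 and 7.47, 13.9 and 7.45 CPM at D14, too few for a test. Cd274, which encodes the ligand PD-L1, was at 12.8, 17.0 and 18.5 CPM at D7 and at 9.96, 14.8 and 26.1 CPM at D14. The days overlapped, and the log2 fold change was 0.11 (SE 0.47).

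The MHC class I list had 17 tested genes and a median of 0.01, with H2-T22 alone lower at an unadjusted p under 0.05, beside 4.52% of all genes. MHC class II had a lower estimate at D14 in 9 of 11 tested genes, with a median of -0.57. The 5 lower at an unadjusted p under 0.05 were H2-Aa, H2-DMa, H2-DMb1, H2-Oa and Cd74, and H2-Ob alone was higher, beside 4.52% and 2.83% of all genes. None passed the adjusted threshold. H2-DMb1, a chain of the peptide editor H2-DM, was at 153.9, 49.1 and 251.8 CPM at D7 and at 34.8, 37.1 and 49.4 CPM at D14. H2-Aa, the alpha chain of I-A, was at 453.2, 151.4 and 499.9 CPM at D7 and at 185.4, 204.8 and 140.6 CPM at D14. In both, D7 replicate 2 was within the D14 range and replicates 1 and 3 above it. H2-Ob, a chain of the H2-DM inhibitor H2-O, went the other way, at 280.0, 490.4 and 140.7 CPM at D7 and 533.9, 544.1 and 582.1 CPM at D14. Without D7 replicate 3, or without D14 replicate 3, the 5 lower genes became 2.

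No microglial identity gene passed the adjusted threshold by edgeR, and most estimates lay slightly below 0. Of 38 homeostatic genes, 31 had a lower estimate at D14 and the median log2 fold change was -0.21. Bin1 was lower and Mef2c higher at an unadjusted p under 0.05, which is 1 of 38 in each direction, beside 4.52% and 2.83% of all genes. The count of lower genes moved with the fit: it was 3 without D7 replicate 1 or without D14 replicate 1, 0 without any other single library, and 5 in a fit of the 6 CD45-low libraries alone, beside 4.4% of all genes in that fit. On recovered reads it was 2. P2ry12, the ADP receptor of ramified microglia, was at 2366, 2144 and 2412 CPM at D7 and at 2362, 1778 and 1617 CPM at D14. Tmem119 was at 1301, 1361 and 1881 CPM at D7 and at 1342, 1022 and 1071 CPM at D14, and Cx3cr1, the fractalkine receptor, at 3168, 3110 and 4151 CPM and at 3449, 2644 and 2202 CPM. The days overlapped in all 3, and the log2 fold changes were -0.27 (SE 0.38), -0.40 (SE 0.46) and -0.33 (SE 0.26). Sall1, a transcription factor that sets microglial identity, was at 436.2 to 462.8 CPM at D7 and at 387.1 to 492.7 CPM at D14. Csf1r had a log2 fold change of -0.33 (SE 0.20) and Siglech of 0.23 (SE 0.39), where D7 replicate 1 was low at 593.2 CPM against 1348 to 1622 CPM elsewhere. The summed level of the list did not separate the days, at 32808, 34054 and 41809 CPM at D7 and 35055, 28675 and 28255 CPM at D14.

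Disease-associated genes were mixed. Of 35 tested, 9 were higher at D14 and 2 lower at an unadjusted p under 0.05, beside 2.83% and 4.52% of all genes, but the median was -0.07 and 15 had a higher estimate. Itgax (CD11c), an integrin chain that marks plaque-associated microglia, was at 20.3, 10 and 13 CPM at D7 and at 57.2, 68.6 and 20.5 CPM at D14. Its D14 replicate 3 was barely above D7 replicate 1 and the other two D14 libraries far above, with a log2 fold change of 1.73 (SE 0.42, adjusted p = 0.180 by edgeR). Csf1, the ligand of Csf1r, was at 32.1, 35.1 and 44.4 CPM at D7 and at 72.2, 95.5 and 92.2 CPM at D14, and Axl, a receptor tyrosine kinase that clears apoptotic cells, at 122.9, 208.6 and 166.6 CPM and at 231.5, 423.6 and 306.4 CPM. In both, all D14 libraries were above all D7 libraries, at log2 fold changes of 1.24 (SE 0.31) and 0.95 (SE 0.28). Clec7a (Dectin-1) was at 22.4, 67.2 and 5.55 CPM at D7 and at 69.7, 74.2 and 110.8 CPM at D14, and Gpnmb at 0, 2.01 and 0 CPM and at 2.49, 17.6 and 21.4 CPM. The remaining higher members at this level were Spp1, Ank, Cd83 and Hif1a, and the lower ones were Lyz2 and Cd52, both highest in D7 replicate 3.

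Other defining genes of the same programme had estimates nearer to 0. Apoe was at 300.3, 320.9 and 442.5 CPM at D7 and at 364.7, 293.8 and 323.2 CPM at D14, and the days overlapped. Its reads were thinly held in the count table, with 6.57 reads recovered from the scaled table for each count. Trem2, the lipid receptor, had a log2 fold change of -0.30 (SE 0.27), its signalling partner Tyrobp of -0.23 (SE 0.19), the lipase Lpl of 0.39 (SE 0.31) and the cystatin Cst7 of 0.47 (SE 0.35). None of these was at an unadjusted p under 0.05. Without D7 replicate 3, 27 of the 35 tested members had a higher estimate, the list's median turned to 0.13, and no member was lower at an unadjusted p under 0.05.

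The TNF and NF-kB list had a higher estimate in 28 of 37 tested genes, with a median of 0.29. Tnfaip3, Marcksl1, Nfkbiz, Il1a and Cd40 were higher at an unadjusted p under 0.05, beside 2.83% of all genes, and none was lower. Tnfaip3, which encodes A20, the ubiquitin editor that shuts off NF-kB signalling, was at 166.7, 114.3 and 124.0 CPM at D7 and at 261.4, 406.9 and 299.0 CPM at D14. The days did not overlap, and the log2 fold change was 1.25 (SE 0.27, adjusted p = 0.0950 by edgeR), short of the threshold. Nfkbiz, a nuclear regulator of NF-kB target genes, overlapped between the days, at 361.3, 348.0 and 262.9 CPM and at 349.7, 626.6 and 522.5 CPM. Without D14 replicate 2 the 5 genes became 2, and without D7 replicate 3 they became 3. An NF-kB motif, GGG and TTTCC with 2 free bases between them on either strand, was in 6 of the 29 tested members with a promoter window (Cxcl1, Cxcl2, Nfkb2, Nfkbia, Rel and Tnfaip3), or 20.7%, against 1.89% of all genes with a window.

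Glucocorticoid-induced genes had a lower estimate at D14 in 11 of 15 tested, with a median of -0.26. Lower at an unadjusted p under 0.05 were 4, Fkbp5, Ddit4, Sult1a1 and Klf9, beside 4.52% of all genes, none was higher, and in all 4 the days did not overlap, beside 6.97% of all genes. Sult1a1, a sulfotransferase, was at 431.8, 301.8 and 379.5 CPM at D7 and at 156.8, 161.3 and 212.3 CPM at D14, and Klf9 at 15, 11 and 18.5 CPM and at 3.73, 3.71 and 6.52 CPM. Other well-known members had estimates nearer to 0. Tsc22d3 (GILZ) was at -0.26 (SE 0.21) on the log2 scale, Sgk1 at -0.14 (SE 0.22), Dusp1 at -0.07 (SE 0.18) and Per1 at 0.03 (SE 0.27). A glucocorticoid response element, GNACA and TGTNC with 3 free bases between them on either strand, was in 3 of the 14 tested members with a promoter window (21.4%), Mt1, Sgk1 and Txnip, against 0.537% of all genes with a window, and these letters were in none of the windows of the 4 lower genes.

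Heat shock genes had 4 of 34 tested members lower at an unadjusted p under 0.05, beside 4.52% of all genes, and none higher, with a median of -0.14. Hspa1b was at 23.5, 470.3 and 192.5 CPM at D7 and at 28.6, 30.6 and 89.4 CPM at D14, so D7 replicates 2 and 3 were high and replicate 1 was as low as D14. Without that D7 replicate 2 the 4 became 1, and without D14 replicate 1 they became 2. Hspa1a and Hspa1b are near-identical, and reads between them are uncertain. The immediate early list had 4 of 25 genes higher at this level (Maff, Egr2, Nr4a1 and Dusp2), beside 2.83% of all genes, with a median of -0.07, and the 4 became 0 without D7 replicate 3 or D14 replicate 2, 1 without D7 replicate 1 and 2 without D14 replicate 1. The Toll-like receptor list had 4 of 27 lower (Tlr13, Tlr4, Irak3 and Tlr7), beside 4.52% of all genes, with a median of -0.08. Tlr7 was at 51.2 CPM in D14 replicate 3 alone and at 261.4 to 505.4 CPM in the other 5 libraries, and its log2 fold change of -0.97 was -0.50 without that library. Ribosomal proteins had 2 of 28 lower and a median of -0.28. By recovered reads, where 83 could be tested, 14 were lower and none higher, beside 4.98% of all genes lower. Their summed level by recovered reads, scaled to library size, was 16867, 16589 and 24868 at D7 and 17021, 14419 and 16339 at D14. D7 replicates 1 and 2 thus lay within the D14 range, and D7 replicate 3 lay above it. Lysosomal genes (median -0.07 over 45), cell cycle genes (0.20 over 41), cholesterol and lipid genes (0.18 over 32), TGF-beta signalling (0.06 over 24), Fc gamma receptors (-0.15 over 10) and amyloid processing genes (0.03 over 30) each had at most 1 member higher and at most 2 lower at an unadjusted p under 0.05. The same held for the circadian clock (-0.21 over 17), complement (-0.19 over 11), the PD-1 axis (-0.07 over 17) and anti-inflammatory genes (-0.01 over 21). Oxidative phosphorylation genes had no member at that level in either direction and a median of -0.01 over 50. By recovered reads, where 77 could be tested, 9 were lower and 1 higher, beside 4.98% and 3.15% of all genes. The median was then -0.22. The summed level of this list by recovered reads was 8810, 8287 and 10717 at D7 and 8560, 7080 and 8879 at D14. Here too D7 replicates 1 and 2 lay within the D14 range, and D7 replicate 3 lay above it.

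Among the amyloid genes, Clu, which encodes the lipid and amyloid-beta chaperone clusterin, had the smallest p. It was at 39.5, 26.1 and 25.9 CPM at D7 and at 73.4, 46.3 and 103.4 CPM at D14. Every D14 library lay above every D7 library, at a log2 fold change of 1.27 (SE 0.36), which did not pass, and the estimate was -0.78 in the CD45-high gate. Bin1, an endocytic adaptor and Alzheimer's disease risk gene, was at 997.2, 1025 and 1165 CPM at D7 and at 878.7, 674.8 and 642.6 CPM at D14, at -0.54 (SE 0.26). Of 27 chemokine and cytokine genes, Csf1, Ccl5, Il1a and Il1rn were higher at an unadjusted p under 0.05, beside 2.83% of all genes, and none was lower. Il1rn rested on few reads, with 0, 0 and 3 recovered at D7 and 2, 6 and 10 at D14. Of 18 chemoattractant receptor genes, the neutrophil receptor gene Cxcr2 and the formyl peptide receptor genes Fpr1 and Fpr2 were lower, beside 4.52% of all genes, and none was higher. Fpr1 and Fpr2 were near the floor in this gate. Recovered reads were 3, 6 and 4 at D7 and 2, 1 and 1 at D14 for Fpr1. For Fpr2 they were 3, 7 and 30 and then 1, 1 and 2, highest in D7 replicate 3. Cxcr2 was at 16, 17 and 44.4 CPM at D7 and at 7.47, 6.49 and 5.59 CPM at D14, and, like the neutrophil list it also stands on, was highest in D7 replicate 3.

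Markers of other cell types were read in the same libraries. The summed choroid plexus epithelium level, over 19 genes, was 400.8, 333.9 and 140.7 CPM at D7 and 863.7, 750.8 and 1255 CPM at D14. Every D14 library lay above every D7 library, and the same held without Enpp2, at 120.3 to 322.8 CPM and 476.4 to 842.8 CPM. Of the 19, 6 passed the filter on low counts and all 6 were higher at an unadjusted p under 0.05, beside 2.83% of all genes, with a median of 1.94, and Enpp2 was the member that passed the adjusted threshold. Without D7 replicate 2 it was 4 of 6, and without D14 replicate 3 it was 3 of the 4 that could then be tested. The filter read these same libraries, so a member low at D7 could be tested through its D14 levels. With no filter, 18 of the 19 had a higher estimate. Of the 19, 12 were then higher at an unadjusted p under 0.05 by edgeR, beside 2.74% of all genes in that fit. Ttr, transthyretin, the thyroxine carrier that is the leading transcript of this epithelium, was at 271.5, 222.6 and 101.8 CPM at D7 and at 507.8, 344.8 and 528.1 CPM at D14. Its log2 fold change was 1.19 (SE 0.36, adjusted p = 0.342 by edgeR). Igf2, Igfbp2, Kl and F5 had log2 fold changes of 2.16, 2.28, 1.73 and 1.54. The part of this epithelium in the level of Enpp2 was not tested. There were 28.7, 23.9 and 20 counts of Enpp2 for each 100 of Ttr at D7 and 38.0, 79.6 and 78.1 at D14, beside 26.0 to 43.6 in the 14 choroid plexus libraries. By recovered reads, in which Ttr had 3.55 times its counts, the ratios were 11.1, 8.49 and 5.88 at D7 and 16.3, 28.8 and 31.8 at D14. By counts, ratios above the choroid plexus range were not particular to Enpp2. At D14 by counts, F5 had 2.21, 2.42 and 2.65 for each 100 of Ttr (choroid plexus 0.45 to 0.78). Kl had 1.23, 7.26 and 8.47 (2.1 to 3.18), and Igf2 had 6.62, 6.45 and 8.99 (2.2 to 6.99). By recovered reads the D14 ratios were 0.63, 0.82 and 0.97 for F5, 0.35, 2.01 and 2.58 for Kl and 1.88, 1.79 and 2.74 for Igf2. The choroid plexus ranges are by counts alone. F5 had at most 15 counts in a CD45-low library and a mean of 117.7 CPM in the CD45-high libraries.

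Neutrophil markers had a lower estimate at D14 in 18 of 21 tested genes, with a median of -1.78. Lower at an unadjusted p under 0.05 were 13, and 2 were higher, against 4.52% and 2.83% of all genes. In 10 every D14 library lay below every D7 library, against 6.97% of all genes, and 4 passed the adjusted threshold, as given above. The filter on low counts used all 11 sorted libraries, the CD45-high ones included. In a fit of the 6 CD45-low libraries alone 11 members could be tested, Elane and Prtn3 not among them, of which 10 were lower and none higher at that level, beside 4.4% and 4.17% of all genes in that fit. The summed level of the list was 1813, 1505 and 7558 CPM at D7 and 1004, 859 and 1289 CPM at D14, without overlap. Ngp, a granule protein and the most abundant member by counts, was at 694.8, 510.4 and 2748 CPM at D7 and at 312.4, 196.5 and 430.3 CPM at D14, with an adjusted p of 0.0784 by edgeR. S100a9, a subunit of calprotectin, was at 122.9, 118.3 and 448.0 CPM at D7 and at 77.2, 64.9 and 54.0 CPM at D14. In both, D7 replicates 1 and 2 were above all D14 libraries. The 2 higher genes, Elane and Prtn3, encode the primary granule proteases of immature neutrophils: Elane was at 0 in all D7 libraries and at 1.24, 4.63 and 3.73 CPM at D14, and Prtn3 was at 51.2 CPM in D14 replicate 3 and at 3.70 to 12.0 CPM in the other 5 libraries. Elane had 1, 5 and 4 counts in the D14 libraries, and the log2 fold change of Prtn3, 2.23, was 0.77 without D14 replicate 3. Without D7 replicate 3, 9 of the 21 were lower at this level and the median was -0.92.

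Some neutrophil transcripts were nearly absent from the count table. S100a8, the partner of S100a9, was at 0 to 7.41 CPM by counts, but by recovered reads it was at 387.3, 264.2 and 1492 RPM (reads per 1000000) at D7 and at 176.8, 158.2 and 158.8 RPM at D14. Camp, the cathelicidin precursor, was at 347.4, 231.8 and 1820 RPM and at 147.0, 112.9 and 306.9 RPM. Both were highest in D7 replicate 3, as Ngp was. For S100a8 by recovered reads, as for Ngp, every D14 library lay below every D7 library. Camp overlapped between the days, with D14 replicate 3 at 306.9 RPM above D7 replicate 2 at 231.8 RPM.

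Monocyte markers, of which Chil3 also stands on the neutrophil list, had a lower estimate in 30 of 37 tested genes, with a median of -0.71, and 12 were lower at an unadjusted p under 0.05, beside 4.52% of all genes. In a fit of the 6 CD45-low libraries alone, 19 could be tested, 4 were lower, beside 4.4% of all genes in that fit, and the median was -0.51. Their summed level overlapped between the days, at 1163, 853.4 and 3205 CPM at D7 and 776.6, 880.5 and 896.9 CPM at D14. Ly6c2 was at 22.4, 14 and 218.5 CPM at D7 and at 13.7, 10.2 and 35.4 CPM at D14. Without D7 replicate 3 the 12 became 7, and without D14 replicate 2 they became 8. Neuronal markers had a lower estimate in 10 of 10 tested genes with a median of -0.95, which was -0.25 without D7 replicate 3 and -1.51 without D14 replicate 3. Rbfox3 (NeuN) was at 25.7, 24.1 and 22.2 CPM at D7 and at 2.49, 6.49 and 1.86 CPM at D14, and unlike the neutrophil genes it was no higher in D7 replicate 3. Its log2 fold change was -2.65 (SE 0.73, adjusted p = 0.302 by edgeR). Markers of T and NK cells summed to 174.2 to 231.4 CPM, of B cells to 93.3 to 136.0 CPM and of pericytes and smooth muscle to 7.48 to 23.2 CPM, and each overlapped between the days. Of these lists, 13 of 32, 8 of 17 and 6 of 14 genes were at 0 in all 6 libraries.

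**Figure D4:**
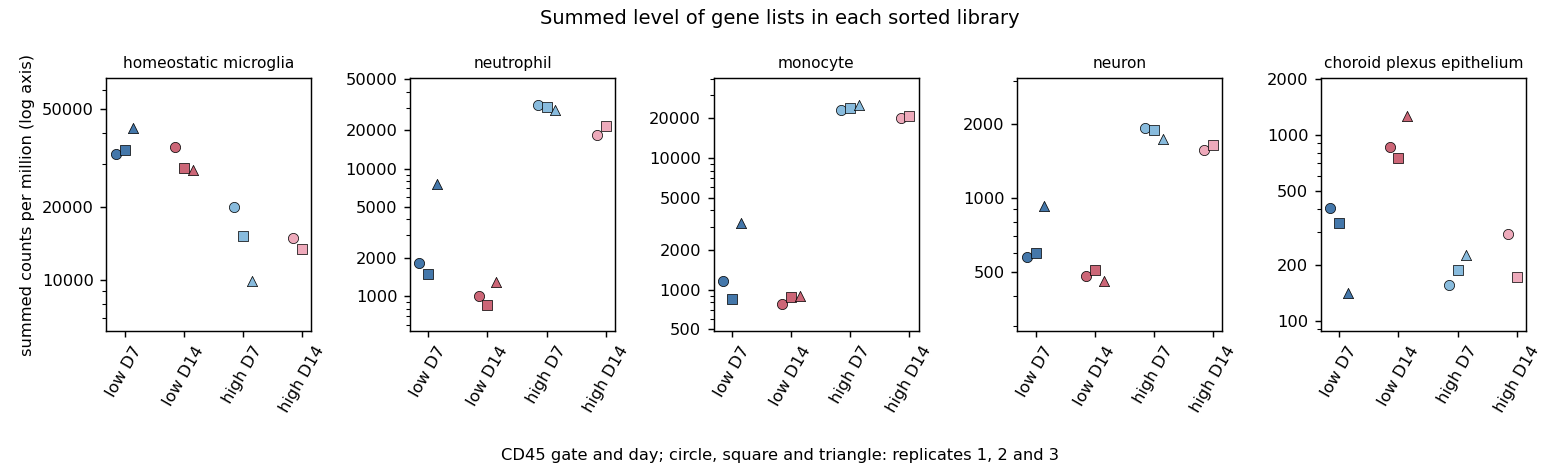
Summed counts per 1000000 (CPM) (log axis) of 5 gene lists in each sorted library, by CD45 gate and day, with a circle, square and triangle for replicates 1, 2 and 3. In the CD45-low gate the choroid plexus level lies higher at D14 and the neutrophil level lower, with D7 replicate 3 at 7558 CPM, while the CD45-high libraries hold 18253 to 31789 CPM of neutrophil genes.

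The same days were compared in the CD45-high gate to see which changes were shared. There 1 gene passed the adjusted threshold by edgeR (0.0110% of those tested), Ly6a, a surface antigen that interferons induce and that is named here after its values were seen. It was at 19.9, 35.7 and 20.6 CPM at D7 and at 158.1 and 137.2 CPM at D14 in the CD45-high gate, and overlapped between the days in the CD45-low gate, at 12.8 to 17.0 CPM and 10.2 to 25.1 CPM. The time change of the CD45-low gate differed from that of the CD45-high gate at the adjusted threshold in no gene, by edgeR or by DESeq2, with 542 genes at an unadjusted p under 0.05 by edgeR (5.98%; 2.05% with the larger rise in the CD45-low gate and 3.93% the other way) and 436 by DESeq2.

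Of the genes called in the CD45-low gate, Cacna1a had the smallest p for this difference. It was at 19.9, 29.7 and 27.5 CPM in the D7 CD45-high libraries and at 29.4 and 10.4 CPM in the D14 ones, where the days overlapped, and the difference of the log2 fold changes was 2.38 (SE 0.59, adjusted p = 0.626 by edgeR). Csf1, at 66.3, 32.7 and 36.6 CPM at D7 and 27.6 and 16.6 CPM at D14 in the CD45-high gate, had a difference of 2.23 (SE 0.53, adjusted p = 0.626 by edgeR). Csf1 thus went up in the estimate of the first gate and down in that of the second. The other 8 of the 10 smallest p were Lpxn, Pacsin1, Slc22a17, Arhgef18, Maml2, C3ar1, Pmp22 and Desi2. Of these, Lpxn, Slc22a17, C3ar1, Pmp22 and Desi2 had an estimate between -0.28 and 0.16 in the CD45-low gate, while in the CD45-high gate Slc22a17 was at -2.02 and the other 4 were between 1.37 and 2.05. Pacsin1 was at 0 in both D14 CD45-high libraries.

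Several changes had the same direction in both gates. Tbc1d9 was at 76.3, 92.1 and 50.3 CPM at D7 and at 29.4 and 25.0 CPM at D14 in the CD45-high gate, a log2 fold change of -1.39 (SE 0.36) beside -1.46 in the CD45-low gate. Fkbp5 was at 351.4, 208.0 and 260.8 CPM and at 82.7 and 79.0 CPM, a change of -1.75 (SE 0.36) beside -1.39. Neither gene overlapped between the days there, and neither passed the adjusted threshold in that gate. Tnfaip3 was at 1.13 (SE 0.33) beside 1.25, and Axl at 1.19 (SE 0.32) beside 0.95. The type I interferon list had a higher estimate in 36 of 41 tested genes in the CD45-high gate too, with a median of 0.89, and 22 were at an unadjusted p under 0.05 and higher, beside 5.94% of all genes in that gate. Neutrophil markers had a lower estimate in 20 of 21 there, 3 of them at an unadjusted p under 0.05 beside 4.56% of all genes in that gate, at a median of -0.57 and a summed level of 28963 to 31789 CPM at D7 and of 18253 and 21521 CPM at D14. Jdp2 was at 295.1, 243.6 and 205.9 CPM and at 123.1 and 183.0 CPM, a change of -0.69 (SE 0.28). MHC class II had a higher estimate in 5 of 11 genes there and a median of -0.02, and its members were mixed. H2-Aa was at -1.1 beside -1.05 in the CD45-low gate, H2-DMb1 at -0.98 beside -1.86 and H2-Ob at 0.85 in both. H2-DMa was at 0.25 beside -0.74, H2-Oa at 0.01 beside -1.13 and Cd74 at -0.06 beside -0.48.

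**Figure D5:**
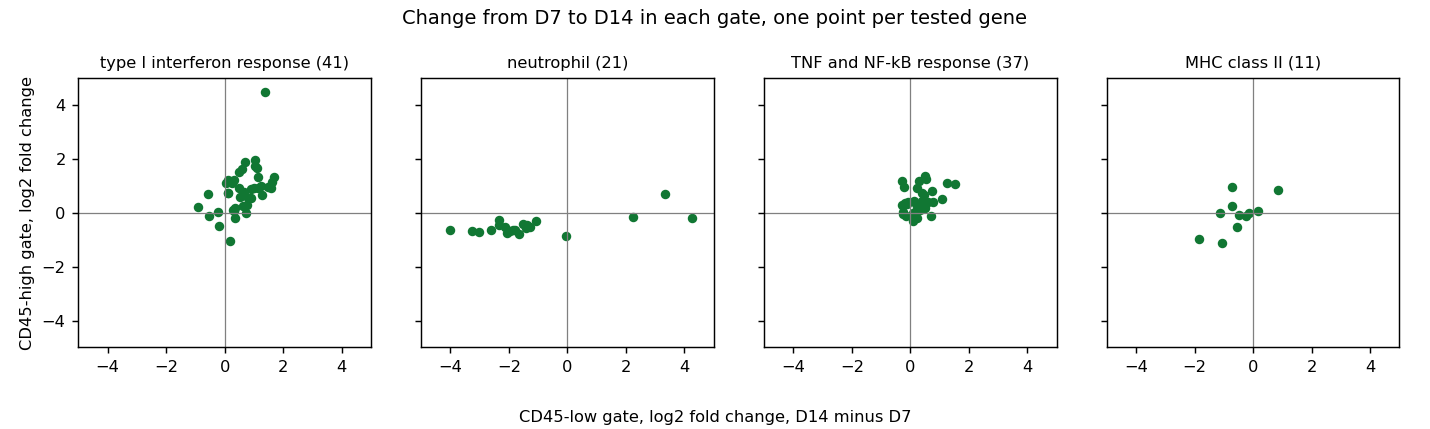
Log2 fold change from D7 to D14 in the CD45-low gate (horizontal) and in the CD45-high gate (vertical), one point per tested gene of 4 lists, with the number tested in brackets. Most type I interferon genes lie above 0 on both axes, most neutrophil genes lie below 0 on both with the wider range on the CD45-low axis, and the MHC class II genes lie on both sides of 0 on the CD45-high axis.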

How the data were processed

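The 6 CD45-low libraries and the 5 CD45-high libraries were read from a table of counts per gene that the authors deposited and from a second table of the same libraries that the authors deposited as scaled signal per transcript. The build mm9 and the tools Bowtie2 and HOMER are named in the submitters' processing notes, without their steps or versions. The scaled signal steps in whole multiples, and dividing by the step gave whole reads within 0.05 for 100% of values, at 1.26 to 1.36 reads per count in the CD45-low libraries, and some transcripts have many more reads there than counts.

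Counts were tested with edgeR 4.0.16 in R 4.3.3 (quasi-likelihood test over 11 libraries and 4 group means, TMM scaling, default expression filter, Benjamini-Hochberg adjustment over 9058 genes, call at an adjusted p under 0.05). The standard error is the log2 fold change divided by the square root of F. The blocked fits, the other alternatives and the leave-one-out fits are given in the closing section; DESeq2 was version 1.42.0. The fit was tested on simulated data. There 42% of genes set to a log2 fold change of 1 were called, and 32.7% of those set to -1. At 2 and -2 it was 98% and 87.2%. Detection limits cover counting error only.

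Genes were named by a rule: the 10 smallest p in each direction, the 4 smallest p of each of 26 pathway lists, the 3 most abundant members of each of 13 marker lists, the 10 smallest p of the difference between gates, and 17 set genes; the remaining named genes are list members or were added after their values were seen. The members and lists were chosen with earlier results of these data known. Some results are not reported here.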

Additional observations from a re-analysis of the deposited data

Results flagged for a closer look

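Signal was present in rows outside the count table. Of 4195 transcripts listed only in the scaled table (3345 of them non-coding RefSeq entries), 254 had more than 3 reads in all 6 CD45-low libraries. In the fit on recovered reads 307 of them were tested, 35 were at an unadjusted p under 0.05 and 0 were called by edgeR. The imprinted long non-coding RNA Meg3 was at 28.2, 71.4 and 184.5 RPM (reads per 1000000) at D7 and at 11.2, 23 and 28.5 at D14, again highest in D7 replicate 3, and the nuclear RNA Malat1 was at 1826, 1955 and 2348 and at 1755, 1797 and 1821 RPM.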

How the results depend on the processing

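Counts of genes called in the CD45-low gate, higher and lower at D14, were 2 and 7 in the reported fit and unchanged with RLE size factors. They were 6 and 17 with DESeq2, 33 and 95 with no expression filter, 2 and 1 on recovered reads, 4 and 3 in a fit of the 6 CD45-low libraries alone, and 4 and 2 on recovered reads of those 6, a setting chosen after seeing the data. With the replicate number as a block they were 9 and 19. Same-numbered libraries of the 2 days deviated together at r = 0.039, 0.088 and 0.101, and differently numbered ones at -0.118 to 0.06. The labels give them no link but the number, and values this small cannot settle whether there is one. Leaving out each replicate gave 0 to 4 higher and 0 to 30 lower. In the CD45-high gate, 1 higher and 0 lower became 0 higher with RLE, 9 and 8 with DESeq2, 82 and 32 with no filter, 3 and 2 on recovered reads, and 0 to 10 and 0 to 3 without each replicate. The difference between the gates, 0 called, became 31 with no filter and 1 with the title number as a replicate block; the 5 CD45-low libraries with a same-numbered CD45-high library each correlated best with it (r = 0.027 to 0.075), a hint from the data only. The causes were not tested.

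Each called gene kept its direction in every setting. Of the 117 pairs of a called gene and a setting, 76 kept the call, 39 did not and 2 had no adjusted p (Anxa1 and Chil3 with DESeq2). Over the 245 named genes tested 2994 of 3080 estimates kept their sign. Of the 9, Enpp2, Cacna1a and Jdp2 were called on recovered reads. With 546297 to 974777 counts a library and 3 libraries a day, a level at or under 3 counts could not be told from 0.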

Other observations

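Several genes were low in 1 library only. Counting tested genes at 40 CPM or more in 5 of the CD45-low libraries and under a 4th of the lowest of these in the remaining one, D14 replicate 3 had 13 such genes, D7 replicate 3 had 5, D7 replicate 1 had 4, D7 replicate 2 and D14 replicate 1 had 1 each and D14 replicate 2 had 0. In D14 replicate 3 these included Cd53, a leukocyte tetraspanin, at 92.2 CPM against 674.8 to 940.9 CPM, the chemokine receptor Ccr1 at 5.59 against 95.8 to 223.6 CPM, and the Y-linked helicase Ddx3y at 7.45 against 119.6 to 220.3 CPM. Eif2s3y, also Y-linked, was at 63.3 CPM in that library and at 57.2 to 84.4 CPM in the others. In D7 replicate 3, Pecam1 was at 37.0 CPM against 229.9 to 298.8 CPM.

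Foxp3, the regulatory T cell transcription factor, was at 108.0, 123.3 and 116.6 CPM at D7 and at 102.1, 80.6 and 89.4 CPM at D14, the highest level on the T and NK cell list, and at 46.4 to 98.4 CPM in the CD45-high gate. The log2 fold change was -0.36 (SE 0.25). On the same list 13 of 32 genes had 0 counts in all 6 CD45-low libraries, among them Cd3d, Cd3e, Cd3g and Cd247. Cd4 had 0 to 6 counts and Ctla4 at most 1. Which cells held the Foxp3 signal was not tested.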
